A study of Sus scrofa with 24 samples.

Results

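The miR-130, miR-301 and miR-454 family was followed in pig fat cells that differentiated in culture. Its members were the rows of the deposited table named ssc-miR-130a, ssc-miR-130b, ssc-miR-301 or ssc-miR-454 with any arm suffix, which gave 5 of the 1587 entries: ssc-miR-130a, ssc-miR-130b-3p, ssc-miR-130b-5p, ssc-miR-301 and ssc-miR-454. All 5 averaged 1 TPM or more over the libraries and so were among the 430 entries tested, where TPM stands for reads per 1000000 reads counted on miRNAs in a library. Preadipocytes came from 6-day-old Yorkshire piglets, either from back subcutaneous fat (BF) or from the longissimus dorsi muscle (intramuscular, IMF). BF-0d and IMF-0d held preadipocytes near confluence before induction. BF-2d and IMF-2d followed induction with 3-isobutyl-1-methylxanthine, dexamethasone and insulin, BF-4d and IMF-4d followed a further stage in insulin alone, and BF-8d and IMF-8d followed growth medium. Each of these 8 groups had 3 libraries, 24 in all, and all cells were cultured with fetal bovine serum. The labels do not link a library to a piglet, so every p-value below measures only the spread between these libraries. The muscle was digested with more collagenase and for longer than the fat, so that tissue and digestion cannot be told apart.

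A miRNA represses mRNAs that pair with its seed, the bases from 2 to 8 of the mature strand. The 3' arms of the family share a seed and so a large part of their predicted targets. miR-130a and miR-130b are known to repress PPARG, the master transcription factor of adipogenesis, and their forced expression restrains the differentiation of preadipocytes. miR-301 and miR-454 are made from an intron of SKA2, a gene of the mitotic spindle, and miR-130b from a hairpin that gives reads on both arms.

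The mature sequences listed by the study are given first, since the seed defines the family and one entry departs from it. Capitals mark bases 2 to 8.
ssc-miR-130a: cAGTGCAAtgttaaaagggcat
ssc-miR-130b-3p: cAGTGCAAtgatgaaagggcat
ssc-miR-454: tAGTGCAAtattgcttatagggt
ssc-miR-301: cAGTCCAAtagtattgtcaaagc
ssc-miR-130b-5p: aCTCTTTCcctgttgcactact
The first 3 carried the same seed, AGTGCAA, and no other of the 958 listed sequences did. ssc-miR-130a and ssc-miR-130b-3p were identical at 20 of 22 bases, differing only by T11A and A13G (the base of ssc-miR-130a first, its position counted from 1 at the 5' end, then the base of ssc-miR-130b-3p). ssc-miR-454 matched ssc-miR-130a at 10 of the 22 bases compared, 7 of which were the seed. ssc-miR-130b-5p, the opposite arm of the miR-130b hairpin, had a seed of its own that no other listed sequence shared. Its bases 13 to 19 were the reverse complement of the family seed, shown here in capitals.
ssc-miR-130b-5p: actctttccctgTTGCACTact

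The listed sequence of ssc-miR-301 broke the family seed at its middle. No exact copy of it was found in Sscrofa11.1 on either strand, whereas each of the other members had exactly 1. The only place within 1 mismatch, on chromosome 12, differed by C5G (listed base, position, genome base) and there carried the family seed, as shown by the genome sequence of the same 23 bases.
genome copy of ssc-miR-301: cAGTGCAAtagtattgtcaaagc
Of 341 known miRNAs with a listed place on a chromosome, 340 had their listed sequence at that place, and ssc-miR-301 was the only exception. Reads were mapped to the genome without mismatch. Which reads this entry counts was not tested, and its values are given below as those of the entry.

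All places lay on the minus strand of Sscrofa11.1, as found by matching the sequences to the RefSeq genome. ssc-miR-130a lay at chr2:13296703-13296724 within the miRNA gene MIR130A, outside other genes, with YPEL4 the nearest at 2458 bases. ssc-miR-454 lay at chr12:35419634-35419656 and the copy of ssc-miR-301 at chr12:35428623-35428645, 8966 bases apart. Both were intronic in all 4 annotated transcripts of SKA2 and on the strand of that gene. ssc-miR-130b-3p (chr14:50245050-50245071) and ssc-miR-130b-5p (chr14:50245088-50245109) were the arms of MIR130B with 16 bases between them, intronic in both transcripts of the protein-coding gene LOC100155534. The family therefore came from 3 chromosomes, and only the miR-130b arms and the SKA2 pair were neighbours.

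The libraries held from 4954845 to 16863560 reads on miRNAs, so that 1 read was worth from 0.0593 to 0.202 TPM. ssc-miR-21-5p alone made up between 27.9% and 60.5% of a library, with the lowest shares in the day 8 libraries, and TPM values of the other entries share this total. ssc-miR-378, ssc-miR-148a-3p and ssc-miR-210, which accompany adipocyte differentiation, were present in every library, and 2 of the 3 rose from day 0 to day 8 in BF and in IMF, where 42.8% and 30.5% of all entries were called. The summed level of 5 skeletal muscle miRNAs lay between 475 and 2361 TPM over all libraries, that of 7 blood miRNAs between 0.662 and 8.08 TPM and that of 4 epithelial miRNAs between 0 and 1.90 TPM. Of the muscle list, ssc-miR-206 was at 0 in 13 libraries and ssc-miR-133b in 2, and ssc-miR-1, ssc-miR-133a-3p and ssc-miR-499-5p in none. Of the blood list, ssc-miR-150 was at 0 in 23 libraries, ssc-miR-144 and ssc-miR-223 in 22 each, ssc-miR-142-5p in 6 and ssc-miR-451 in 3, and ssc-miR-486 and ssc-miR-142-3p in none. From day 0 to day 8 the blood sum went from between 1.19 and 1.99 to between 3.71 and 4.44 TPM in BF and from between 1.31 and 1.87 to between 6.68 and 8.08 TPM in IMF. The muscle sum went from between 818 and 1012 to between 1324 and 2361 TPM in BF, where 2 of the 3 muscle miRNAs tested rose and 1 fell, and its ranges overlapped in IMF. Nearly all of the muscle sum was ssc-miR-1, with a mean of 1072 TPM, and the part of these markers in the results was not tested. The endothelial pair ssc-miR-126-3p and ssc-miR-126-5p summed to between 26.4 and 90.9 TPM in BF and between 18.2 and 40.4 TPM in IMF. Its ranges did not overlap on day 4 (53.6 to 86.4 against 18.7 to 30.9 TPM) or day 8 (51.2 to 90.9 against 24.6 to 34.8 TPM). On those days 1 and 2 of the pair were called lower in IMF, while 36.3% and 37.2% of all entries were called. Of all entries, 124 were lower and 32 higher in IMF on day 4, and 108 lower and 52 higher on day 8. The part of the pair in the source differences below was not tested. In these bulk libraries fewer cells of a type and less of a miRNA per cell cannot be told apart.

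The family was a minor part of the miRNAs of these cells. Together the 5 entries held a median of 71.0 TPM over the 24 libraries (46.0 to 104 TPM). Among the members, ssc-miR-130b-5p had the most reads, with a mean of 29.3 TPM (15.8 to 45.8), followed by ssc-miR-130a with 20.9 TPM (7.16 to 35.9), ssc-miR-454 with 11.5 TPM (6.61 to 15.9), ssc-miR-130b-3p with 9.59 TPM (6.03 to 18.4) and ssc-miR-301 with 1.69 TPM (0.265 to 4.97). The ranges of neighbours in this order overlapped, except that every value of ssc-miR-301 lay below every value of ssc-miR-130b-3p. By mean level ssc-miR-130a stood at rank 158 of the 363 known miRNAs. For comparison, ssc-miR-27a and ssc-miR-27b-3p, other repressors of PPARG, together held 140 to 623 times the summed TPM of ssc-miR-130a, ssc-miR-130b-3p and ssc-miR-454 within a library. ssc-miR-301 rested on 4 to 47 reads a library, so its values carry the largest counting error.

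**Figure D1:**
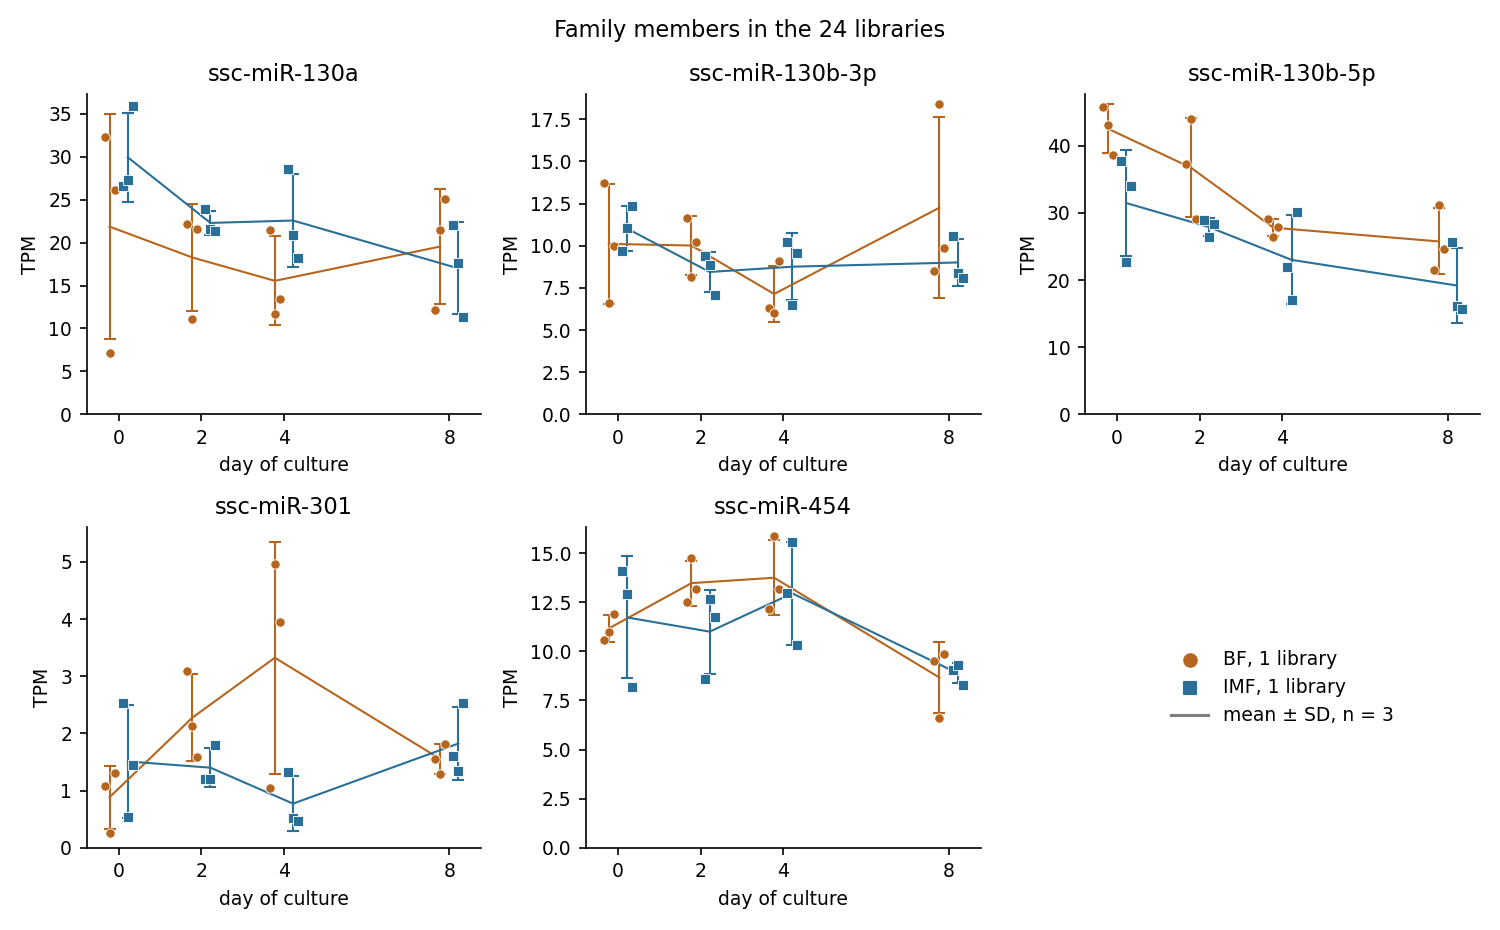
TPM (linear axis from 0) of the 5 family members against the day of culture, with BF libraries as circles and IMF libraries as squares; lines and bars are the mean ± SD of 3 libraries. ssc-miR-130b-5p was lower on day 8 than on day 0 in both sources, ssc-miR-301 reached 4.97 TPM in 1 BF-4d library, and ssc-miR-130a in BF-0d ran from 7.16 to 32.3 TPM.

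Of 60 tests of a member over 12 comparisons of days or sources, 3 passed the threshold, an adjusted p under 0.05 with a fold change above 1.5 by limma, adjusted over all 430 entries, of which 0% to 42.8% were called in the same comparisons. The members called were ssc-miR-130b-5p and ssc-miR-130a from day 0 to day 8 and ssc-miR-301 between the sources on day 4. An unadjusted p was under 0.05 in 9 of the 60, and in 65 to 222 of the 430 entries in each comparison.

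**Figure D2:**
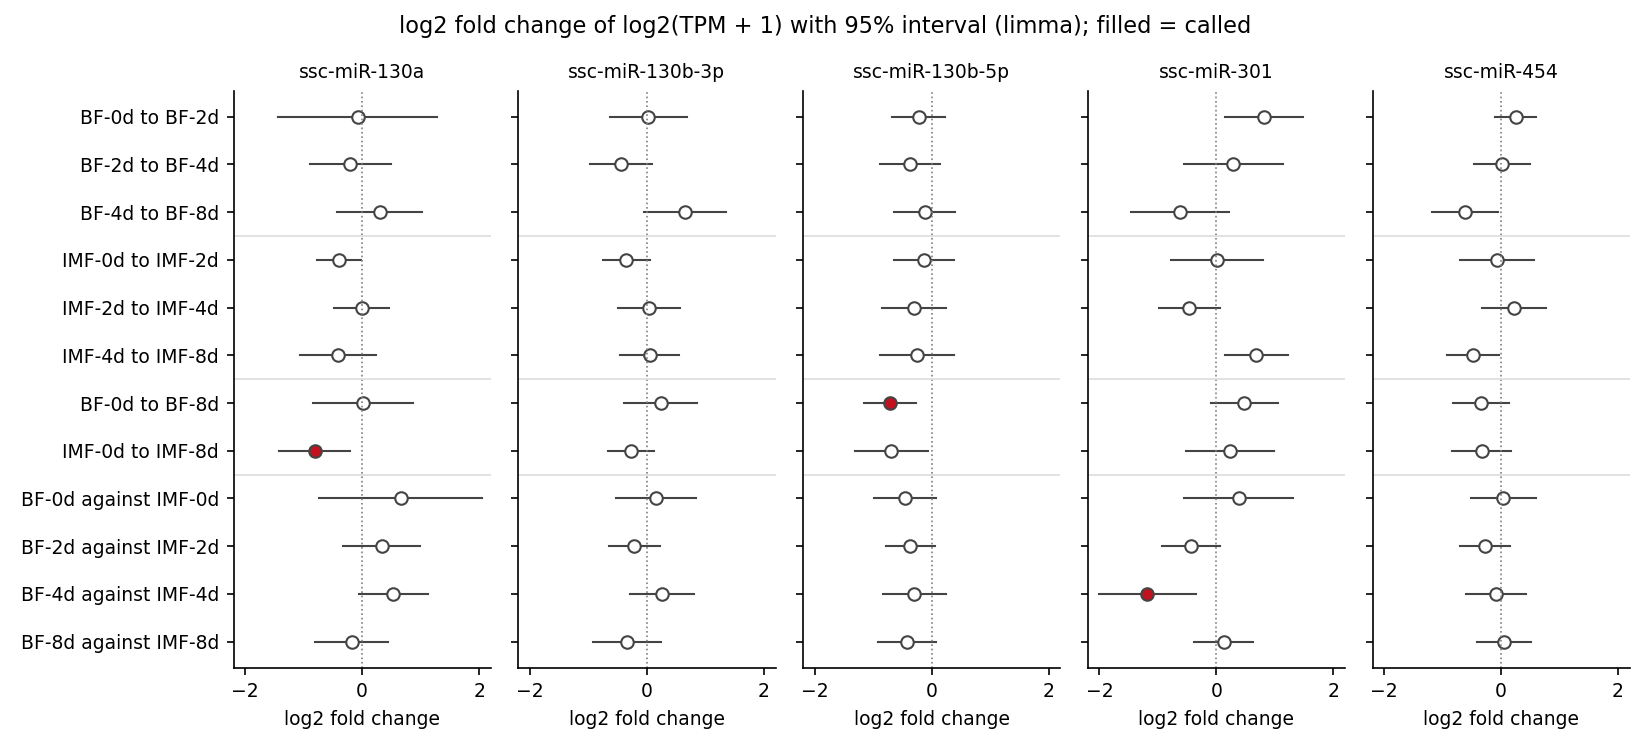
log2 fold change of each member on the log2(TPM + 1) scale in the 12 comparisons, later day minus earlier or IMF minus BF; lines are 95% intervals and filled points were called. The 3 filled points lie at -0.72 (ssc-miR-130b-5p, BF), -0.81 (ssc-miR-130a, IMF) and -1.18 (ssc-miR-301, day 4), and most other intervals span 0.

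The first question was which members moved at each stage of differentiation. In BF, limma called 0 of 15 member tests over adjacent days, with 2 at an unadjusted p under 0.05 and 0 by edgeR or DESeq2, which called 86 and 134 of 1290 tests over all entries. In those comparisons 4.19% of all 430 entries were called from day 0 to day 2, 6.05% from day 2 to day 4 and 3.02% from day 4 to day 8, and 104, 117 and 99 entries had an unadjusted p under 0.05. In IMF, limma likewise called 0 of 15, with 3 at an unadjusted p under 0.05 and 2 calls each by edgeR and DESeq2, which each called 73 of 1290 tests over all entries. The background there was 0% from day 0 to day 2, where 68 of the 430 entries had an unadjusted p under 0.05, 0% from day 2 to day 4 with 65 such entries, and 13% from day 4 to day 8 with 139. The 2 calls by edgeR and DESeq2 were ssc-miR-130a and ssc-miR-454 in the last IMF interval. Without the first BF-4d library limma called 1 of the 15 member tests in BF and 126 of 1290 over all entries. Without the first IMF-4d library it called 1 of the 15 in IMF and 39 of 1290 over all entries.

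ssc-miR-454, one of the SKA2 intron miRNAs, had its lowest group means on day 8 in both sources. It measured 12.2, 15.9 and 13.2 TPM in BF-4d and 9.50, 6.61 and 9.89 TPM in BF-8d, which did not overlap. The log2 fold change was -0.62 (SE 0.26, 95% interval -1.19 to -0.05, adjusted p = 0.181 by limma), and it was called in 1 fit of all 24 libraries (adjusted p = 0.0314). In IMF it measured 13.0, 15.6 and 10.3 TPM on day 4 and 9.07, 9.29 and 8.30 TPM on day 8, again without overlap. There the change was -0.48 (SE 0.19, adjusted p = 0.131 by limma), and edgeR and DESeq2 called it at -0.79 and -0.80 (adjusted p = 0.0137 and 0.00904). From day 0 to day 8, on the other hand, it changed by -0.35 (SE 0.23) in BF and -0.33 (SE 0.21) in IMF, neither called. Averaged over both sources the day 0 to day 8 change was -0.34 (exact two-sided permutation test within sources, p = 0.04, adjusted p = 0.0851), and without the third IMF-0d library it was -0.45 (adjusted p = 0.0219).

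The second question was what differed between preadipocytes and the last day. limma called 1 of 5 members in BF and 1 of 5 in IMF, both lower on day 8, while 42.8% of all entries were called in BF and 30.5% in IMF. The median log2 fold change of the members was 0.02 in BF and -0.33 in IMF, beside 0.15 and 0.07 over all entries.

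ssc-miR-130b-5p, the arm of the miR-130b hairpin without the family seed, fell in BF. It measured 45.8, 43.1 and 38.7 TPM in BF-0d and 21.5, 31.1 and 24.6 TPM in BF-8d. Every day 0 library was above every day 8 library, with means of 42.5 ± 3.62 and 25.7 ± 4.91 TPM (SD, n = 3). The log2 fold change was -0.72 (SE 0.21, 95% interval -1.16 to -0.27, adjusted p = 0.0117 by limma), and the call was kept without each library in turn and by edgeR and DESeq2 but lost with no filter (adjusted p = 0.0525). In IMF it measured 37.7, 22.6 and 34.1 TPM on day 0 and 25.7, 16.1 and 15.8 TPM on day 8, where the second day 0 library lay below the first day 8 library. The change in IMF was of like size, -0.69 (SE 0.26, 95% interval -1.32 to -0.06), but missed the threshold (adjusted p = 0.0840 by limma), and edgeR and DESeq2 called it (adjusted p = 0.00344 and 0.00116). limma also called it with a filter at 10 TPM (0.0250), median-of-ratios scaling (0.0316) or 1 fit of all 24 libraries (0.0184). With the day labels permuted within each source, a test added after the values were seen, the mean change over both sources was -0.70 (exact two-sided permutation test, p = 0.01 with a smallest possible p of 0.005, adjusted p = 0.0307 over all 430 entries, of which 40.5% were called). In this and the other exact test a call is an adjusted p under 0.05, with no limit on the fold change. Without the first BF-0d library it was -0.67 (adjusted p = 0.0555), and without the second IMF-0d library the IMF change alone was called (-0.90, adjusted p = 0.0329 by limma).

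ssc-miR-130b-3p, the arm with the family seed, was not called in either source, and the difference between the arms was not tested. It measured 13.7, 6.63 and 9.96 TPM in BF-0d and 8.49, 18.4 and 9.89 TPM in BF-8d, and the groups overlapped. The log2 fold change was 0.23 in BF (SE 0.30, 95% interval -0.39 to 0.86) and -0.27 in IMF (SE 0.16, 95% interval -0.66 to 0.13), neither called. The ratio of the 2 arms in a library does not depend on how libraries are scaled. It was 3.34, 3.88 and 6.50 in the BF-0d libraries in rising order and 1.69, 2.49 and 2.53 in the BF-8d libraries. The BF-8d ratios were all below those of BF-0d, BF-2d and BF-4d, whose lowest was 2.84. In IMF the ratio ran from 2.05 to 3.90 on day 0 and from 1.93 to 2.42 on day 8, which overlapped. These ratios were looked at after the values were seen and are given as a description. The 5' arm had more reads than the 3' arm in all 24 libraries, with a median ratio of 3.03.

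**Figure D3:**
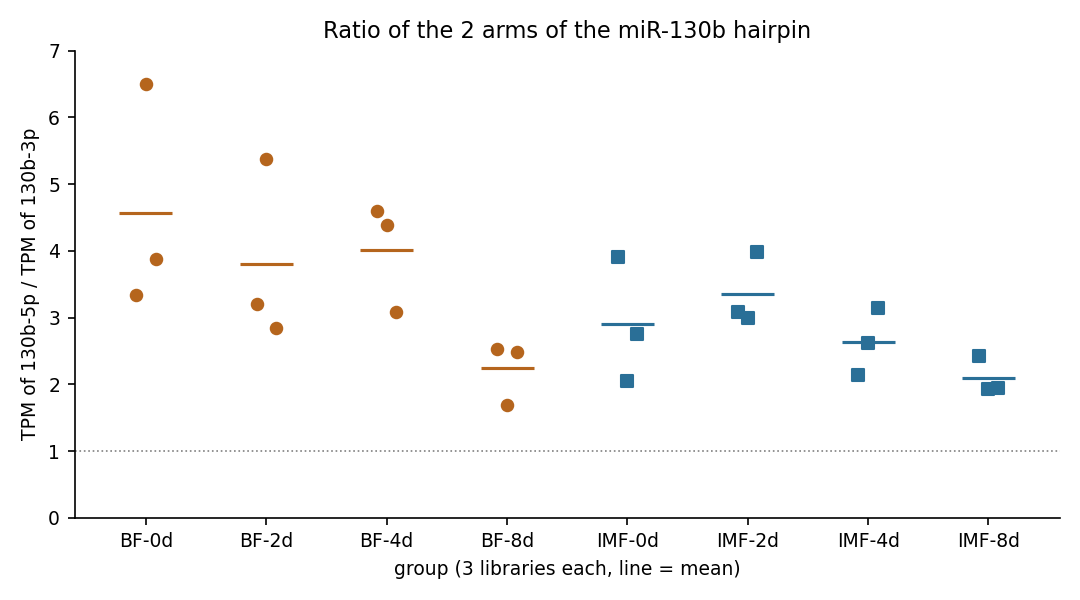
Ratio of the TPM of ssc-miR-130b-5p to that of ssc-miR-130b-3p in each library (linear axis from 0) by group; a line marks the mean of 3 libraries and the dotted line a ratio of 1. All points lie above 1, and the BF-8d points lie between 1.69 and 2.53, below the other BF groups.

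ssc-miR-130a, which represses PPARG, fell in IMF. It measured 26.5, 27.3 and 35.9 TPM in IMF-0d and 22.0, 17.6 and 11.4 TPM in IMF-8d, without overlap. The means were 29.9 ± 5.20 and 17.0 ± 5.35 TPM (SD, n = 3), and the log2 fold change was -0.81 (SE 0.25, 95% interval -1.42 to -0.21, adjusted p = 0.0441 by limma). The call stood close to the threshold, since it was lost without each library but the first of IMF-8d (adjusted p from 0.0663 to 0.127), with no filter (0.183) and in 1 fit of all 24 libraries (0.0921), while edgeR and DESeq2 called it. In BF it measured 32.3, 7.16 and 26.2 TPM on day 0 and 12.2, 21.4 and 25.0 TPM on day 8, with wide overlap. The log2 fold change in BF was 0.02 (SE 0.40, 95% interval -0.83 to 0.87), which includes the value seen in IMF. Without the second BF-0d library it was -0.61 (adjusted p = 0.115 by limma), and the change over both sources was then called at -0.71 (adjusted p = 0.0321 by the exact permutation test), against -0.40 with it (adjusted p = 0.454). The BF direction also turned under median-of-ratios scaling (-0.12), which shifted the median entry by -0.11. That library was the lowest of BF-0d in ssc-miR-130a, ssc-miR-130b-3p and ssc-miR-301 but not in ssc-miR-130b-5p or ssc-miR-454. Whether the course of ssc-miR-130a differed between the sources was tested by the source-by-day interaction, whose adjusted p was 0.554 by limma.

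Other known regulators of adipogenesis were counted beside the family. Of 9 miRNAs reported to restrain it, 5 rose and 3 fell from day 0 to day 8 in BF, where 42.8% of all entries were called, and 2 rose and 0 fell in IMF, where 30.5% were. In BF ssc-miR-27b-3p averaged 15233 ± 640 TPM on day 0 and 7968 ± 653 TPM on day 8 (SD, n = 3), a log2 fold change of -0.94 (SE 0.18, adjusted p = 0.000512 by limma). ssc-miR-27a averaged 1174 ± 295 and 777 ± 267 TPM (-0.62, SE 0.24, adjusted p = 0.0459 by limma). In IMF neither passed, with log2 fold changes of 0.05 for ssc-miR-27b-3p and -0.23 for ssc-miR-27a. Those that rose in BF included ssc-miR-224, by 3.68 on the log2 scale, from a mean of 0.102 to 13.9 TPM. ssc-miR-138 rose by 2.87 on that scale, and the mean of ssc-miR-155-5p went from 498 to 1432 TPM. Of 15 miRNAs reported to support adipogenesis, 13 passed the filter, of which 6 rose and 1 fell in BF and 7 rose and 0 fell in IMF, against the same shares of all entries. Of these, the largest rise in BF was of the hypoxia-responsive ssc-miR-210, by 4.71 in BF and 1.90 in IMF on the log2 scale. ssc-miR-19a and ssc-miR-19b hold the run GTGCAA of the family seed shifted by 1 base, and nearness by sequence to other entries was not measured. ssc-miR-19b rose in BF, with means of 32.9 ± 0.374 and 55.1 ± 8.74 TPM (SD, n = 3), by 0.72 on the log2 scale (SE 0.20, adjusted p = 0.00911 by limma). ssc-miR-19a was not called in BF (0.50, adjusted p = 0.142 by limma), and in IMF neither was (-0.33 for ssc-miR-19a and 0.14 for ssc-miR-19b).

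The third question was how intramuscular cells differed from subcutaneous cells. By limma, 1 of 5 members was called on day 4 and 0 of 5 on each other day, while the share of all entries called was 29.3%, 12.3%, 36.3% and 37.2% on the successive days. At an unadjusted p under 0.05 the count over the 4 days was 1 of 20, beside 187, 125, 193 and 219 of the 430 entries on the successive days. edgeR made 1 call and DESeq2 made 2, beside 448 and 445 of 1720 tests over all entries. The median entry was lower in IMF, by 0.13 to 0.34 on the log2 scale, and median-of-ratios scaling raised it by 0.11 to 0.34, so that every source difference in TPM below depends in part on the scaling.

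The entry ssc-miR-301 was the one called on day 4. It measured 1.05, 4.97 and 3.95 TPM in BF-4d (9, 47 and 44 reads) and 1.33, 0.515 and 0.473 TPM in IMF-4d (15, 8 and 5 reads). The first BF-4d library lay below the first IMF-4d library, so the groups overlapped. The log2 fold change was -1.18 (SE 0.38, 95% interval -2.01 to -0.36, adjusted p = 0.0254 by limma), and -1.85 with a pseudocount of 0.1, -1.63 by edgeR and -1.69 by DESeq2. The call was lost without 4 of the 6 libraries, namely replicates 2 and 3 of each group (adjusted p from 0.0598 to 0.108), with no filter (0.330), and under edgeR (0.0803) and median-of-ratios scaling (0.0855), and it was kept by DESeq2 (0.0419). Over time the means of the entry in BF were 0.885, 2.27, 3.32 and 1.55 TPM on days 0, 2, 4 and 8, and in IMF 1.51, 1.40, 0.773 and 1.82 TPM. These courses bent in opposite directions, with the BF means highest and the IMF means lowest on day 4. From day 0 to day 8 the change over both sources was 0.35 (adjusted p = 0.262 by the exact permutation test) and 0.20 to 0.50 without each library in turn. The source-by-day interaction passed for this entry alone (adjusted p = 0.0480 by limma), the other 4 members having an adjusted p between 0.425 and 0.970, and 31.6% of all entries passed. The adjusted p was between 0.0546 and 0.102 with another pseudocount, no filter, median-of-ratios scaling or edgeR, and under 0.05 in 5 of the 24 fits without 1 library.

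ssc-miR-130b-5p had the steadiest source difference in TPM. Its mean was lower in IMF on each of the 4 days, at 31.5 against 42.5, 27.9 against 36.8, 23.0 against 27.8 and 19.2 against 25.7 TPM. All IMF libraries were below all BF libraries on 2 of the days. No single day passed (adjusted p from 0.155 to 0.393 by limma). Over the 4 days together the mean difference was -0.39 on the log2 scale (exact two-sided permutation test with source labels permuted within days, 160000 arrangements, p = 0.00183, adjusted p = 0.00500 over all 430 entries, of which 52.3% were called). It was -0.44 to -0.33 without each library in turn, with the call kept. Under median-of-ratios scaling it was -0.14 (adjusted p = 0.166) and on day 4 the direction turned, to 0.12.

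The source difference of ssc-miR-130a was not called in TPM. Its mean was higher in IMF on days 0, 2 and 4, at 29.9 against 21.9, 22.3 against 18.3 and 22.6 against 15.5 TPM, and lower on day 8, at 17.0 against 19.5 TPM. The mean difference over the 4 days was 0.33 (exact two-sided permutation test, p = 0.132, adjusted p = 0.201) and 0.18 to 0.43 without each library in turn, lowest without the second BF-0d library, and under median-of-ratios scaling it was 0.58 with an adjusted p of 0.0216. On day 4 the difference of 0.53 (SE 0.27, adjusted p = 0.149 by limma) became a call under median-of-ratios scaling (0.94), by edgeR, by DESeq2 (0.97), and without the first BF-4d library (0.77). The difference in mean log2 between IMF and BF was higher for ssc-miR-130a than for ssc-miR-130b-5p on every day, which scaling can hardly alter, and this was not tested. The other seed-bearing members, ssc-miR-130b-3p and ssc-miR-454, differed between the sources by -0.04 and -0.07 over the 4 days (adjusted p = 0.833 and 0.541 by the exact permutation test), and both directions turned under median-of-ratios scaling, to 0.19 and 0.16. ssc-miR-301 differed by -0.28 (adjusted p = 0.308 by the exact permutation test) and by -0.14 under that scaling.

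**Figure D4:**
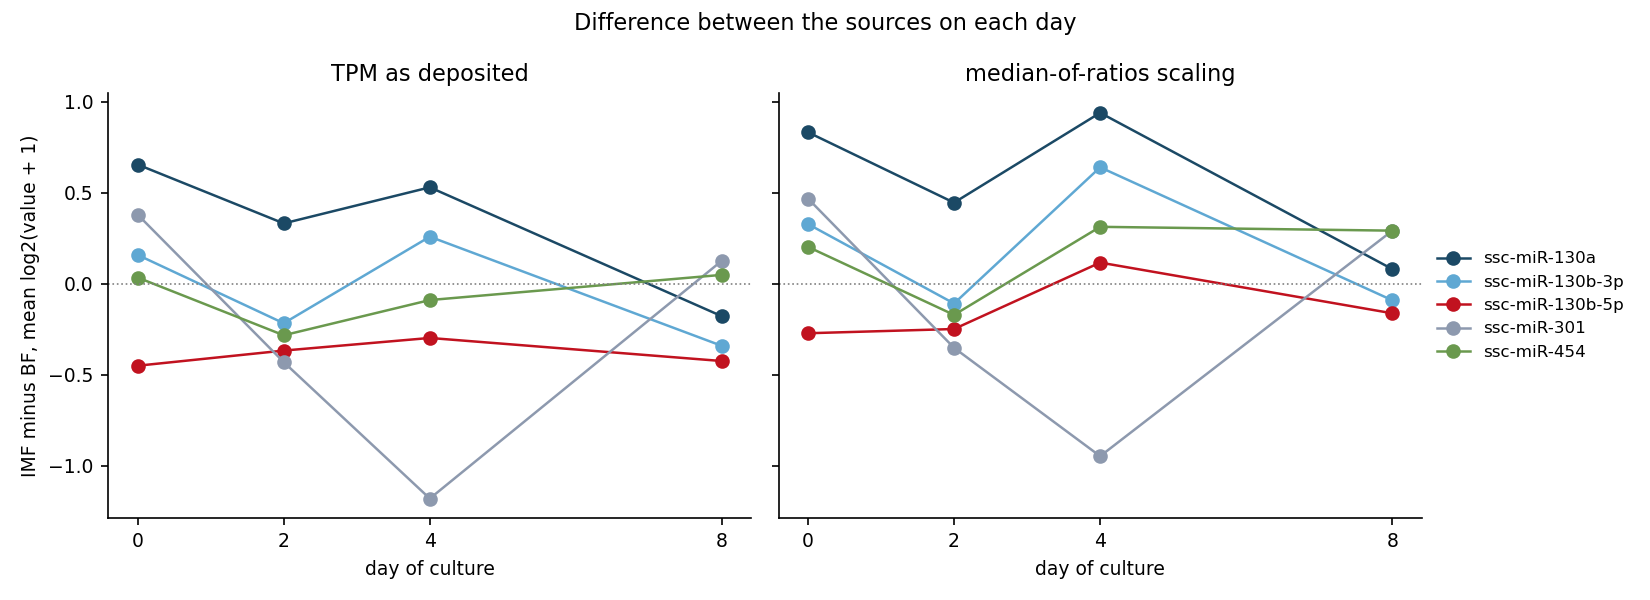
IMF minus BF difference in mean log2(value + 1) of each member against the day of culture, from TPM as deposited (left) and after median-of-ratios scaling (right); each point compares 3 with 3 libraries. ssc-miR-130b-5p lies below 0 on all 4 days on the left but at 0.12 on day 4 on the right, and ssc-miR-130a lies above it on every day in both panels.

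On the same days the regulator lists also differed between the sources. ssc-miR-27b-3p was lower in IMF on day 0 (6889 ± 497 against 15233 ± 640 TPM, SD, n = 3; log2 fold change -1.15, adjusted p = 0.000920 by limma), as was ssc-miR-27a (-0.87, adjusted p = 0.0222 by limma), and neither differed past the threshold on days 2, 4 or 8. ssc-miR-19a and ssc-miR-19b were lower in IMF on day 4, at -0.71 and -1.14, and on day 8, at -1.02 and -0.85. On day 4, 9 of the 13 supporting miRNAs tested were lower in IMF and 0 higher, with ssc-miR-30d at -1.74, and 5 of the 9 restraining miRNAs were lower and 0 higher. Over all 430 entries 124 were lower and 32 higher on that day. On day 8, 6 supporting miRNAs were lower and 0 higher, and 5 restraining miRNAs were lower and 1 higher, beside 108 lower and 52 higher over all entries.

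Correlations between members ranged from -0.52 to 0.56. Over the 24 libraries the highest correlation of log2(TPM + 1) between members was that of ssc-miR-130a and ssc-miR-130b-3p (Pearson r = 0.56, Spearman rho = 0.74), which also stood in the deviations from the group means (r = 0.62). The arms of the miR-130b hairpin had r = 0.28, the SKA2 pair ssc-miR-454 and ssc-miR-301 r = 0.20, and ssc-miR-130b-3p and ssc-miR-454 r = -0.52. Each member was also compared with 265 known miRNAs outside the family. The most alike were ssc-miR-7-5p for ssc-miR-130a (r = 0.62), ssc-miR-7137-5p for ssc-miR-130b-3p (r = 0.57) and ssc-miR-128 for ssc-miR-130b-5p (r = 0.86). For ssc-miR-301 it was ssc-miR-30c-5p (r = 0.69) and for ssc-miR-454 ssc-miR-21-5p (r = 0.53). Next came ssc-miR-1249 and ssc-miR-143-5p for ssc-miR-130a, ssc-miR-331-5p and ssc-miR-27a for ssc-miR-130b-3p, ssc-miR-615 and ssc-miR-107 for ssc-miR-130b-5p, ssc-miR-24-2-5p and ssc-miR-500-5p for ssc-miR-301, and ssc-miR-190a and ssc-miR-365-3p for ssc-miR-454. These values describe libraries that share groups, depth and a common total, and only ssc-miR-130b-5p had neighbours above 0.80. Within groups the r of ssc-miR-454 with ssc-miR-21-5p was -0.08.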

How the data were processed

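Small RNA of BF and IMF adipocytes was sequenced as single reads of 50 nt. The authors trimmed adapters, mapped clean reads to Sscrofa11.1 with Bowtie without mismatch, removed other annotated small RNAs, assigned known miRNAs by comparison with miRBase and predicted new ones with miRDeep2; versions are not given in the sources used here. Preadipocyte cultures came from 3 piglets. The deposited values, called TPM by the authors, are RPM: the reads of an entry scaled to a library total of 1000000 miRNA reads. All 38088 values were whole multiples of 1 read within 0.01 reads, so whole reads were recovered (100% of values). Columns were matched to samples by title.

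Members, lists and comparisons were chosen with earlier results of these data known, and no list result is independent evidence. The 430 entries averaging 1 TPM or more were tested with limma 3.58.1 (eBayes with trend, R 4.3.3) on log2(TPM + 1), which understates changes of low entries, over the 6 libraries of the 2 groups compared, with Benjamini-Hochberg adjustment over all entries. The source-by-day interaction was a moderated F test over 24 libraries. Exact permutation tests were computed in Python 3.11.15 with NumPy 2.4.6 and adjusted over all entries. The alternatives tried changed the pseudocount to 0.1, dropped the filter or raised it to 10 TPM, added the replicate block, or used median-of-ratios scaling, edgeR 4.0.16 and DESeq2 1.42.0 on recovered reads, 1 fit of all 24 libraries, and leaving out each library. Intervals are limma's and cover the spread between libraries. Reads carry no molecular identifiers, so duplicates cannot be told from molecules. Named were all members and miRNAs sharing their seed or holding its run GTGCAA shifted by 1 base. Also named were the 3 known miRNAs outside the family most correlated with each member, ssc-miR-27a and ssc-miR-27b-3p. Up to 4 listed regulators with the smallest adjusted p per comparison were named too. The markers named, ssc-miR-21-5p and the neighbouring genes lie outside these rules.

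The deviations of same-numbered libraries from the group means correlated above 0.1 in all 3 pairs only for BF-0d with IMF-0d (0.188, 0.509 and 0.205). The tests reported carry no block for replicate number, on day 0 included, and the block was an alternative. Fits were tested on simulated data. Sequences are those listed by the study, matched to the RefSeq genome Sscrofa11.1.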

Additional observations from a re-analysis of the deposited data

Results flagged for a closer look

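The time course of ssc-miR-301 differed between the sources by the source-by-day interaction (limma moderated F test, adjusted p = 0.0480 over 430 entries, of which 31.6% passed). The adjusted p was over 0.05 under each other setting that tested this entry and in 19 of the 24 fits without 1 library, while F was 4.24 in the reported test, 3.82 to 4.54 under those settings and 2.82 to 9.34 without each library. Its BF means were highest on day 4, at 3.32 TPM, where its IMF mean was lowest, at 0.773 TPM. The entry had 4 to 47 reads a library, and the listed sequence differs from the genome by C5G. The part of read depth and of the listed sequence in this difference was not tested.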

How the results depend on the processing

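Counts of members called moved as follows. Without each library in turn, the counts over all entries ran from 21 to 126 of 1290 over adjacent days in BF. In IMF they ran from 32 to 68. They ran from 274 to 326 of 860 from day 0 to day 8 and from 444 to 529 of 1720 between the sources. For the interaction they ran from 102 to 144 of 430. Over adjacent days in BF, 1 fit of all 24 libraries called 1 (0 to 1 without each library in turn), and 231 against 57 of 1290 over all entries. Over adjacent days in IMF, edgeR and DESeq2 each called 2 (0 to 1 without each library), and 73 against 56 over all entries. From day 0 to day 8, 0 were called with no filter and 3 with a filter at 10 TPM, median-of-ratios scaling, edgeR or DESeq2 (1 to 2 without each library). Over all entries these counts were 225 of 3174 with no filter, 181 of 448 at 10 TPM, and 309, 335 and 316 of 860 with the others, against 315 of 860 in the report. Between the sources, 0 were called with no filter, a filter at 10 TPM and the replicate block, and 2 with DESeq2 (0 to 2 without each library); over all entries these were 271 of 6348, 352 of 896, and 459 and 445 of 1720, against 495 of 1720. The source-by-day interaction was called for 0 members with no filter, a pseudocount of 0.1, the replicate block (adjusted p = 0.0514 for ssc-miR-301), a filter at 10 TPM (which dropped ssc-miR-301), median-of-ratios scaling and edgeR (0 to 1 without each library), where 120 of 1587 entries passed with no filter, 77 of 224 at 10 TPM and 114 to 135 of 430 otherwise, against 136 of 430.

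Under median-of-ratios scaling the source difference over the 4 days was 0.58 for ssc-miR-130a, 0.19 for ssc-miR-130b-3p, -0.14 for ssc-miR-130b-5p and 0.16 for ssc-miR-454; the median entry shifted with the scaling, and its part was not tested. Without each library it ran from -0.10 to 0.04 for ssc-miR-130b-3p. The change from day 0 to day 8 over both sources ran from -0.71 to -0.20 for ssc-miR-130a, -0.17 to 0.10 for ssc-miR-130b-3p, -0.81 to -0.63 for ssc-miR-130b-5p and -0.45 to -0.26 for ssc-miR-454. The BF change of ssc-miR-130a was -0.12 under median-of-ratios scaling, -0.32 by edgeR and -0.33 by DESeq2, and -0.61 to 0.41 without each library; the cause was not tested.

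Replicate numbers paired no libraries but those of day 0. With the replicate block the adjusted p (limma) from day 0 to day 8 in IMF was 0.0915 for ssc-miR-130a and 0.0422 for ssc-miR-130b-5p. It was 0.0521 for ssc-miR-301 between the sources on day 4. Beside these and the interaction the block changed no limma call, and the exact tests were not run with it. The call of ssc-miR-130b-5p in BF was lost only with no filter (adjusted p = 0.0525). ssc-miR-301 had 4 to 47 reads a library, and differences at that depth carry a large counting error.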
